A study of Mus musculus with 2 samples.

Results

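Each transcript in these sections carries a flag for whether it lies over a segmented nucleus, and that flag was compared gene by gene across the panel. Only gene transcripts that were assigned to a cell and reached a quality score of 20 were kept, control features were left out, and a gene was measured in a section where at least 100 such transcripts remained. Of the 379 panel genes, 259 were measured in the mock section and 345 in the SspA+HDM section. They made 346 genes in at least 1 section and 258 in both. The nuclear share of a gene is the percentage of its transcripts in cells that lie over the nucleus, with an exact Clopper-Pearson 95% interval.

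The sections were whole dorsal skin of C57BL/6 mice that had been shaved and depilated, cut at 5 µm from formalin-fixed, paraffin-embedded blocks 7 days after treatment. One group had PBS put on the skin (mock) and the other SspA and HDM (SspA+HDM). RNA was imaged in place with Xenium In Situ and a mouse tissue atlas panel. With 1 sample per treatment no test was possible, so no difference between the sections has a replicate check and all intervals cover counting error only. Each section held 2 separate strips of skin, which are parts of 1 section and not replicates.

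An mRNA is made and spliced in the nucleus, exported through the nuclear pores and translated in the cytoplasm. At one moment the share in the nucleus therefore reflects synthesis, retention, export and decay, as well as how much of the cell is nucleus. Some noncoding RNAs are known to stay in the nucleus, while mRNAs of long-lived structural proteins accumulate in the cytoplasm. In a thin section the flag is a projection, so a transcript above or below the nucleus counts as over it, and the share also depends on where the outlines of nucleus and cell were drawn.

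In mock, 25.8% of 2325265 gene transcripts in cells lay over a nucleus (25.8 to 25.9), and in SspA+HDM 31.6% of 7929474 (31.6 to 31.6). The strips of mock stood at 25.7 and 26.0%, and those of SspA+HDM at 31.9 and 31.4%, so the strips of the sections did not overlap. Cells differed in size: the median cell outline covered 133 µm² in mock and 89.4 µm² in SspA+HDM. In the 25% of cells with the smallest outlines the share was 46.9% in mock and 49.8% in SspA+HDM, and in the 25% with the largest outlines 14.1 and 18.1%. Transcripts of mock cells that were not over the nucleus lay at a median of 3.11 µm from it and at most 15.5 µm, against 2.08 and 15.3 µm in SspA+HDM. No transcript outside a cell carried the flag.

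The makeup of the sections moved with this difference. Cells were clustered, and clusters were named from marker genes. Skeletal muscle-like cells, which hold titin (Ttn) and parvalbumin (Pvalb), had the lowest shares of the named classes, 10.02% in mock and 11.6% in SspA+HDM, with the largest outlines. They held 742137 mock transcripts and 1308161 SspA+HDM transcripts. Keratinocyte-like cells held 636598 and 3718402 transcripts, with shares of 35.7 and 34.2%. Adipocyte-like cells stood at 21.2 and 23.99%, mural-like cells at 21.2 and 25.4%, fibroblast-like cells at 24.4 and 27.6%, and macrophage or monocyte-like cells at 30.4 and 33.7%. Lymphatic endothelial-like cells reached 31.2 and 34.6% and blood endothelial-like cells 34.5 and 38.4%. Hair follicle-like cells, among the smallest, reached 46.4 and 48.6%, but lay largely in different clusters: 3 of their clusters had 1580, 1415 and 765 SspA+HDM cells against 42, 5 and 24 of mock. Another held 591 mock and 166 SspA+HDM cells, with shares of 54.8 and 50.1%. The fibroblast-like class held 1765 cells in mock and 433 in SspA+HDM, where 4092 further cells lay in an unnamed cluster led by Tnfaip6 and the matrix genes Lum and Fbln5, at 29.6%. The cycling cell-like cluster, which hair follicle genes such as Lhx2 lead as well, had the highest share in SspA+HDM (56.9%) and only 6 cells in mock. With every named class given the same weight in both sections, an alternative added after seeing the data, the shares were 27.5% in mock and 28.3% in SspA+HDM, against 24.6 and 30.9% for the same classes unweighted.

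**Figure D1:**
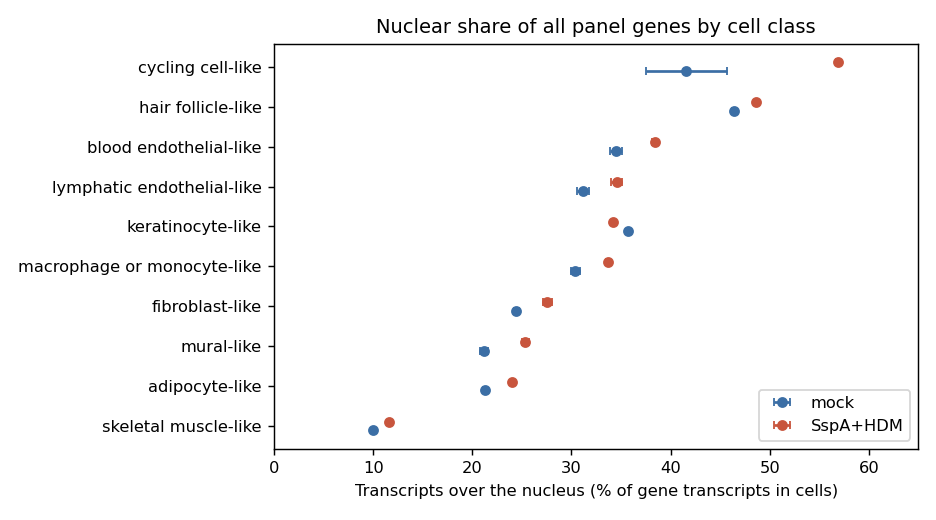
Percentage of gene transcripts in cells that lay over the nucleus, by cell class, in mock (blue) and SspA+HDM (red). Bars are exact 95% intervals for counting error, and most are narrower than the symbols. Skeletal muscle-like cells are lowest in both sections, and the keratinocyte-like class is the only named one where SspA+HDM is below mock.

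Across genes the nuclear share ran from 4.63% to 81.1% in mock, with a median of 36.9%, and from 5.75% to 88.2% in SspA+HDM, with a median of 44.0%. The order of the genes was much alike in the sections: over the 258 genes measured in both, Pearson's r between the shares was 0.92 and Spearman's rho 0.89. Genes are not independent replicates, and both sections share the panel, its probes and the way outlines were drawn. Over the 228 of these genes with at least 100 transcripts in every strip, the median absolute difference between the strips of a section was 1.11 percentage points in mock and 0.868 in SspA+HDM, against 3.03 between sections. With its sign kept, SspA+HDM minus mock, the median difference between sections was 2.23 points.

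The lowest shares belonged to muscle genes. Actn3, which encodes the alpha-actinin of fast muscle fibres, had 4.63% of 48891 transcripts over the nucleus in mock (4.45 to 4.82) and 6.15% of 81966 in SspA+HDM (5.99 to 6.32). Its strips stood at 4.6 and 4.7% in mock and at 6.3 and 6.0% in SspA+HDM. Ttn, which encodes the giant sarcomere protein titin, stood at 5.82% (5.69 to 5.95) and 7.17% (7.06 to 7.28). The intermediate filament gene Des (5.45 and 6.82%), the calcium buffer gene Pvalb (5.61 and 7.16%) and the Z-disc gene Myoz2 (5.24 and 6.68%) lay in the same range. So did the muscle enzyme genes Pygm (7.14 and 9.22%), Pgam2 (7.26 and 8.84%) and Cox8b (5.18 and 5.75%), a subunit of cytochrome c oxidase. Of the 127385 Ttn transcripts of mock, 122327 lay in skeletal muscle-like cells. In each of these genes SspA+HDM was above mock, as was the muscle-like class itself.

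Car3, which encodes a carbonic anhydrase abundant in fat and muscle, allowed the same transcript to be read in both kinds of cell. Its share was 11.01% in adipocyte-like cells and 5.58% in muscle-like cells of mock, and 13.7 and 6.74% in SspA+HDM. In each case it was below the other genes of the same class, which stood at 23.4 and 10.6% in mock. Hp, the gene of the haemoglobin-binding protein haptoglobin, was at 9.75% in adipocyte-like cells of mock and 14.2% in those of SspA+HDM. Low nuclear shares were thus measured in fat-like as well as muscle-like cells. Ttn was also low in adipocyte-like (12.8%) and fibroblast-like (8.72%) cells of mock, where the other genes stood at 21.3 and 24.6%. It was not low in keratinocyte-like cells of SspA+HDM, at 36.8% beside 34.2%. Outlines can take in transcripts of neighbouring cells, and the part these have in the low shares was not tested.

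The highest shares belonged to genes counted rarely. In mock these were A330076H08Rik (81.1% of 143 transcripts, 73.7 to 87.2), the olfactory marker gene Omp (81.0% of 253), the T cell inhibitory receptor gene Ctla4 (78.4% of 388), the calcium-binding protein gene Calb1 (77.1% of 105), the glial filament gene Gfap (76.6% of 111) and Sox17, an endothelial transcription factor gene (75.1% of 365). In SspA+HDM, Ager, a receptor gene best known from lung, had the highest share, 88.2% of 417 transcripts (84.8 to 91.2). A330076H08Rik stood at 79.4% there, Omp at 78.9%, Calb1 at 80.1%, Sox17 at 79.2% and Ctla4 at 77.2%. The RefSeq table gives A330076H08Rik and 0610005C13Rik as the panel's 2 genes that are not protein coding, and 0610005C13Rik was measured in SspA+HDM only, at 79.3% of 135 transcripts. Both lay near the top of the ranking, among many protein-coding genes. At the threshold of 100 transcripts, the nearest genes outside were Hemgn at 58.2%, Kng2 at 54.1% and Cldn3 at 43.9% in mock, and Fcnb at 72.7% in SspA+HDM. The nearest inside were Stfa2l1 at 49% and Calb1 in mock, and Gp2 at 79% in SspA+HDM.

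Sox17 and Ctla4 kept high shares in every named class that held at least 100 of their transcripts. Sox17 stood at 78.4% in blood endothelial-like cells of mock and 84.4% in those of SspA+HDM, where the other genes stood at 34.3 and 38.1%. It was also at 74.8% in muscle-like cells of SspA+HDM, where the other genes stood at 11.6%. Ctla4 was at 80.8% in keratinocyte-like cells of mock, which held 229 of its 388 transcripts, and at 75.3% in those of SspA+HDM. Keratinocytes are not cells known for Ctla4. The keratinocyte-like cluster with the T cell genes Cd3d and Cd8a among its leading genes held 18 of the 3518 keratinocyte-like cells in mock. Whether these transcripts are Ctla4 RNA or probe binding elsewhere was not tested.

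Share and transcript number ran in opposite directions over the whole panel. Spearman's rho between the log10 transcript number and the nuclear share was -0.54 over 259 genes in mock and -0.69 over 345 genes in SspA+HDM. Transcript numbers depend on the probes of each gene as well as on its RNA, so they order how often genes were counted and not their levels. Pooled, the genes with under 100 transcripts in a section, which were not measured singly, stood at 58.1% in mock (56.8 to 59.5) and 67.5% in SspA+HDM (65.5 to 69.4). Genes with 100 to under 1000 transcripts stood at 45.2 and 59.5%, those with 1000 to under 10000 at 35.1 and 42.4%, and those with 10000 or more at 23.0 and 30.7%. The cells that held them differed less: all genes of those same cells stood at 32.7 and 39.0% for the rarest pool and at 24.8 and 31.5% for the most abundant. The order was also seen inside classes. In muscle-like cells of SspA+HDM the pools stood at 56.8, 40.4, 27.5 and 10.5%, and in macrophage or monocyte-like cells at 59.8, 57.2, 46.1 and 30.6%. In keratinocyte-like cells of that section the first pools did not follow it (61.8 and 63.1%, then 47.3 and 33.8%).

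Control features, which match no gene, did not share 1 level. Negative control probes stood at 50% of 118 transcripts in mock (40.7 to 59.3) and 35.9% of 348 in SspA+HDM (30.9 to 41.2), above the genes of the same cells (31.6 and 30.4%). Negative control codewords stood at 18.6 and 17.6%, and unassigned codewords at 21.7 and 23.7%, below the genes of the same cells. The rarely counted genes thus lay above all control kinds in SspA+HDM, and within the interval of the control probes in mock (58.1% for the rarest pool). Reads of the rarest genes that fell under the quality minimum stood at 26.0% in mock and 28.2% in SspA+HDM. The part that probe binding outside the intended RNA has in the high shares was not tested.

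**Figure D2:**
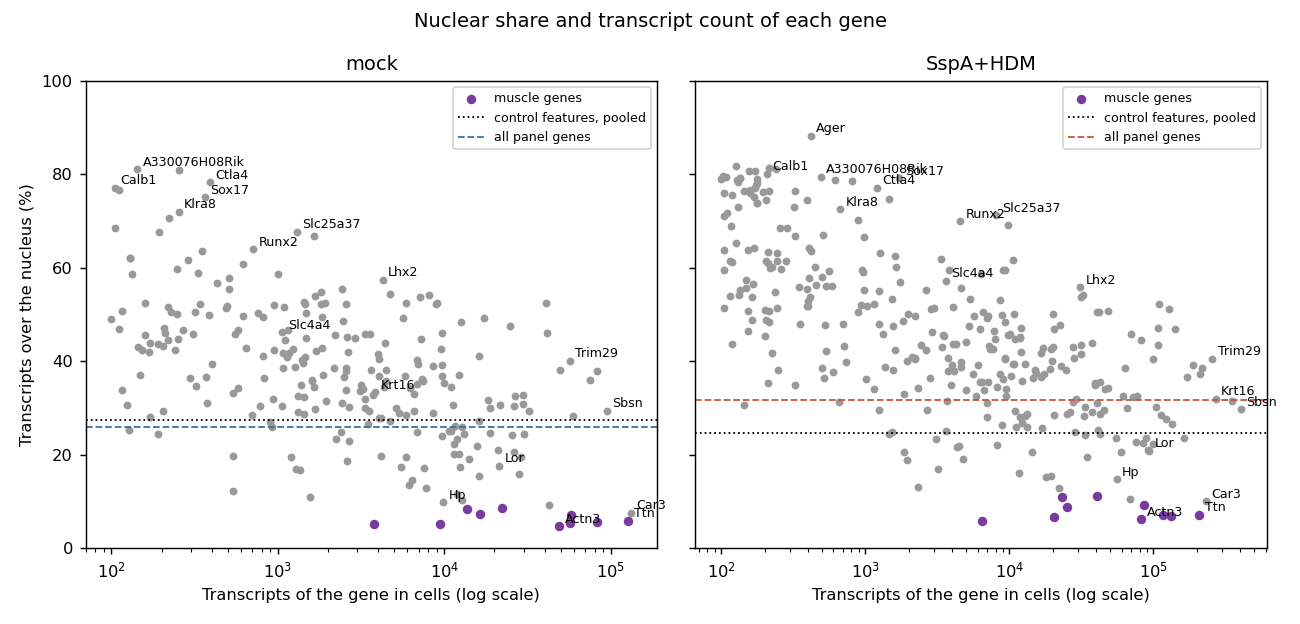
Nuclear share of each measured gene against its number of transcripts in cells (log axis), in mock and SspA+HDM. Purple points are Ttn, Actn3, Des, Pvalb, Pygm, Cox8b, Myoz2, Pgam2, Myoz1 and Trdn, the dashed line is the share of all panel genes, and the dotted line that of all control features together. Rarely counted genes such as Calb1 and Ager sit high, and abundant muscle genes such as Actn3 and Ttn sit lowest.

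Because cells differ in shape and in where the section cut them, each gene was also set against the other genes of the same cells. The matched ratio is the number of its transcripts over the nucleus divided by the number expected if each had the nuclear share of the other genes' transcripts in that cell. Genes at least 25% above the expected number were counted as more nuclear than matched, and genes at or below 0.8 as less nuclear; this limit is the same fold in either direction. In mock 127 of 259 genes (49%) were more nuclear and 27 (10.4%) less, and in SspA+HDM 186 of 345 (53.9%) were more nuclear and 15 (4.35%) less. The median gene stood at 1.24 in mock and 1.28 in SspA+HDM, above 1. The 57 genes with 10000 transcripts or more hold 1813813 of the 2325265 mock transcripts, so they make up most of what each gene is compared with. The matched ratio also fell with transcript number, with Spearman's rho at -0.61 in mock and -0.74 in SspA+HDM. In mock 34 of 41 genes with 100 to under 300 transcripts were more nuclear, against 2 of the 57. In SspA+HDM these were 70 of 73 and 18 of 120. The panel percentages set beside gene lists below are not matched for transcript number. Of the genes measured in both, 98 were more nuclear in both sections, 77.2% of those in mock and 87.5% of those in SspA+HDM. All 15 that were less nuclear in SspA+HDM were so in mock too, 55.6% of the mock number. No gene was past the limit in opposite directions. Among genes with at least 1000 transcripts, 67 in mock and 81 in SspA+HDM were more nuclear. Among transcripts over the nucleus or within 3 µm of it, the less nuclear genes numbered 16 and 6.

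Most of the listed sarcomere and muscle genes were low against their own cells as well, and other muscle genes differed. Of the 6 sarcomere and muscle genes on the list, 4 were less nuclear in each section, against 10.4 and 4.35% of all genes, and their median matched ratio was 0.56 in mock and 0.63 in SspA+HDM. Actn3 stood at 0.49 (0.466 to 0.505) and 0.56 (0.542 to 0.572), Des at 0.51 and 0.56, Ttn at 0.56 and 0.62, and Pvalb at 0.56 and 0.64. Trdn, which encodes triadin of the calcium release complex, stood at 0.90 and 0.9995. Outside the list, Myoz1, a Z-disc gene, was at 0.89 and 0.998 and Hrc, of the calcium store, at 1.05 and 1.07. Also outside it, Myoz2 stood at 0.54 and 0.57, Cox8b at 0.49 in both, Pgam2 at 0.763 and 0.797, and Pygm at 0.73 and 0.82. Pln, the gene of the calcium pump inhibitor phospholamban, was the highest on the list, with 50.7% of 229 mock transcripts over the nucleus and matched ratios of 1.82 and 1.73. In muscle-like cells of mock it stood at 43.2%, where the other genes stood at 10.01%. The medians moved to 0.79 and 0.82 when only transcripts within 3 µm of the nucleus were used.

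Other genes read in the same muscle-like cells, named after their values were seen, lay above Actn3, Ttn, Des and Pvalb. Ppargc1a, a coactivator that drives formation of mitochondria, stood at 33.9% in muscle-like cells of mock and 38.8% in those of SspA+HDM, with matched ratios of 2.20 and 1.97. Myf6, a muscle-specific transcription factor gene, stood at 17.8 and 20.5%, with matched ratios of 1.79 and 1.71. That share was below the 22.1 and 27.5% of all genes with 1000 to under 10000 transcripts in these cells. Slc25a37, which encodes the mitochondrial iron carrier mitoferrin, stood at 46.5 and 52.5% in these cells. Over all cells its share was 67.7% (65.1 to 70.2) and 71.2% (70.2 to 72.2), with over 1000 transcripts in each section. In every named class with 100 of its transcripts or more it was at 46.5% or above.

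Metabolic genes lay on both sides of 1. Of the metabolic enzymes and binding proteins, 3 of 9 measured genes in mock and 2 of 10 in SspA+HDM were less nuclear, beside 10.4 and 4.35% of all genes, and 2 and 1 were more nuclear, beside 49 and 53.9%. Their median ratios were 0.91 and 0.94. Ltc4s, the gene of the leukotriene C4 synthase, was high at 1.61 and 1.49, and Alox5ap, which serves the same pathway, stood at 1.26 and 1.21. Cox8b was lowest of all genes in SspA+HDM at 0.49 and stood at 0.49 in mock, and Car3 stood at 0.52 and 0.61. Among secreted signals, Hp (0.51 and 0.64) and the adipokine gene Retn (0.61 and 0.69) were less nuclear in both sections, while the growth factor gene Areg (1.503 and 1.69) and the chemokine gene Ccl12 (1.95 and 1.65) were more nuclear. Of the carriers, channels and pumps, 6 of 11 in mock and 8 of 12 in SspA+HDM were more nuclear and none less, the first near the 49% and the second somewhat above the 53.9% of all genes. Aqp7, the glycerol channel of fat cells, stood at 1.86 and 1.58, and Aqp4, a water channel of muscle fibres, at 1.80 and 1.66.

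Immune genes lay high against the panel as a whole, which is not matched to them for transcript number. Of the myeloid genes 11 of 12 in mock and 13 of 13 in SspA+HDM were more nuclear than matched, beside 49 and 53.9% of all genes, with medians of 1.67 and 1.49. Csf3r, the receptor for the granulocyte growth factor, had 58.9% of 333 transcripts over the nucleus in mock and 59.6% of 3798 in SspA+HDM, ratios of 2.12 and 1.98. Ms4a6b (2.10 and 1.70) and Ms4a6c (1.85 and 1.58), membrane protein genes of myeloid cells, followed. The exception was Ifitm6, at 0.87 (0.776 to 0.969) in mock and 1.49 (1.37 to 1.62) in SspA+HDM. Of its 918 mock transcripts, 722 lay in keratinocyte-like cells, where its share was 24.1%. All 5 measured lymphocyte and mast cell genes in mock and 5 of 6 in SspA+HDM were more nuclear. Cpa3, the mast cell carboxypeptidase gene, stood lowest of them at 1.29 and 1.22.

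Of the vessel genes 10 of 12 in mock and 7 of 12 in SspA+HDM were more nuclear, beside 49 and 53.9% of all genes, so the count in SspA+HDM was near that of the panel. Sox17 led with 2.59 (2.42 to 2.74) and 2.10 (2.05 to 2.15). Gpihbp1, which holds lipoprotein lipase on capillary endothelium and was outside the list, had the highest ratio of genes with at least 1000 transcripts in mock, 2.36, and stood at 1.54 in SspA+HDM. Prox1, a transcription factor (1.64 and 1.501), and Mmrn1, a secreted adhesion protein (1.12 and 1.11), both mark lymphatic vessels and differed in ratio. Of the 6 smooth muscle and mural genes, 3 were less nuclear in mock, beside 10.4% of all genes, and none in SspA+HDM. In each section 1 was more nuclear. The less nuclear genes were Cnn1 (0.72 and 0.89), Tagln (0.80 and 0.86) and Myh11 (0.80 and 0.89), of the contractile vessel wall. They were past the threshold in mock only, and the difference between sections has no test. Higd1b (2.32 and 1.48) was the more nuclear gene, and Rgs5 stood at 1.23 and 0.92.

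Transcription factor genes did not lie at 1 level. Of the 7 measured genes on the list of transcription factors and DNA-binding proteins, 4 were more nuclear in each section and none less. That is near the 49 and 53.9% of all genes. The list includes Trim29 and leaves out other measured transcription factor genes, such as Myf6 and Runx2, both more nuclear in each section. The count therefore holds for the chosen list and not for all transcription factor genes of the panel. The median ratio of the 7 listed genes in mock was 1.38, and 1.10 among those with at least 1000 transcripts. Tbx1 (1.38 and 1.29) was above matched, while the follicle factor gene Lhx2, whose share of 57.4% in mock and 55.8% in SspA+HDM was high, stood at 1.07 and 1.01, with 53.9 and 55.1% expected from the other genes of its cells. Sox9 stood at 1.13 and 1.07. The cell division genes Stmn1 and Ube2c were within the limit in both sections, and Cenpf stood at 1.34 in mock and 1.05 in SspA+HDM. Matrix genes centred on 1.15 and 1.07. The proteoglycan genes Bgn (0.81 and 0.82) and Lum (0.94 and 0.80) were lowest in mock and in SspA+HDM respectively. The microfibril gene Mfap5 stood at 1.49 and 1.42 and was highest of those measured in mock. The neutrophil collagenase gene Mmp8, which had under 100 transcripts in mock, was highest in SspA+HDM at 1.53. Keratins and junction genes centred on 1.09 and 1.06, with the stress keratin gene Krt16 at 0.996 and 0.99.

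The list of cornified envelope and late differentiation genes held some of the widest differences between sections. In mock, 3 of 10 cornified envelope and late differentiation genes were less nuclear and 3 more, beside 10.4 and 49% of all genes. In SspA+HDM 1 was less nuclear and none more, beside 4.35 and 53.9%. Lce1m, a late cornified envelope gene, stood at 0.47 (0.446 to 0.502) in mock and 1.22 (1.14 to 1.30) in SspA+HDM. Lor, the gene of the envelope protein loricrin, stood at 0.56 and 0.93. Ivl, the gene of the envelope precursor involucrin, was at 0.77 and 0.79. In the other direction, the cysteine protease inhibitor genes Stfa2l1 (1.58 and 0.83) and Cstdc4 (1.39 and 0.82) stood above 1 in mock and below 1 in SspA+HDM.

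**Figure D3:**
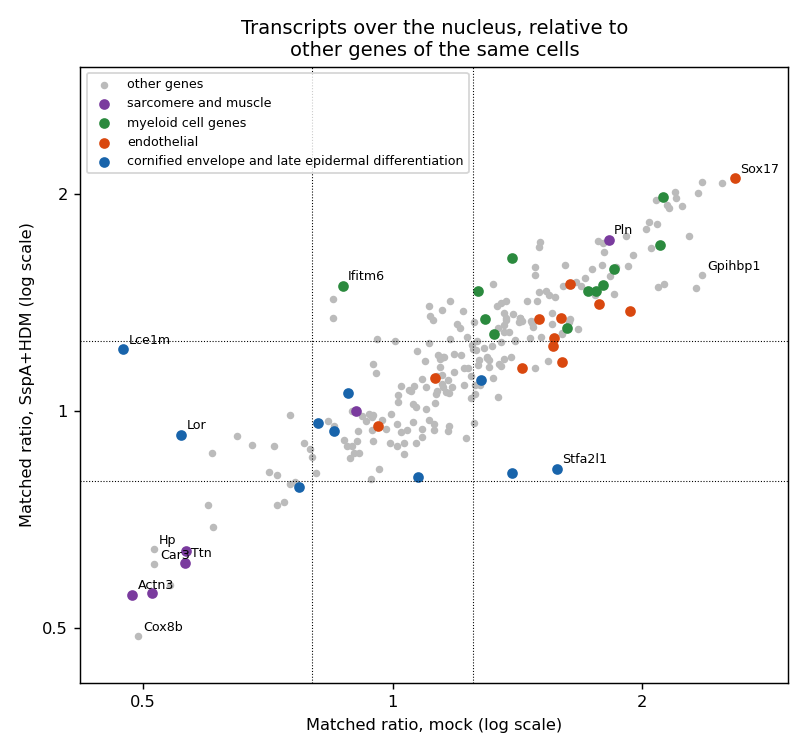
Matched ratio of each gene measured in both sections, mock against SspA+HDM (log axes), with 4 gene lists in colour and dotted lines at 0.8 and its inverse. Genes of the sarcomere and muscle list other than Pln and Trdn lie at the lower left, and myeloid and endothelial genes mostly at the upper right. Genes of the cornified envelope and late differentiation list such as Lce1m and Stfa2l1 lie far from the diagonal.

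Distances outside the nucleus ranked genes alike. Across genes, Spearman's rho between the nuclear share and the median distance of the other transcripts from the nucleus was -0.76 in mock and -0.65 in SspA+HDM. Both come from the same outlines. For Actn3, 65.9% of mock transcripts lay beyond 5 µm and the median distance outside was 7.19 µm, and in SspA+HDM these were 58.5% and 6.34 µm. Lor, at 17.6 and 20.9% over the nucleus, had 27.1 and 29.4% within 2 µm of it and 19.3 and 16.9% beyond 5 µm. Lhx2 had 38.7 and 40.6% within 2 µm and 0.96 and 0.66% beyond 5 µm. Ctla4 and A330076H08Rik had 13.4 and 13.3% within 2 µm in mock and 15.8 and 15.3% in SspA+HDM, and Trim29 had 41.7 and 41.8%. These are percentages of all transcripts in cells, so a high nuclear share leaves less for the ranges outside. Among transcripts outside, the median distance was 1.46 and 0.98 µm for Ctla4 and 0.73 and 0.77 µm for A330076H08Rik. For Lhx2 it was 0.58 and 0.66 µm, and for Trim29 1.20 and 1.23 µm.

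**Figure D4:**
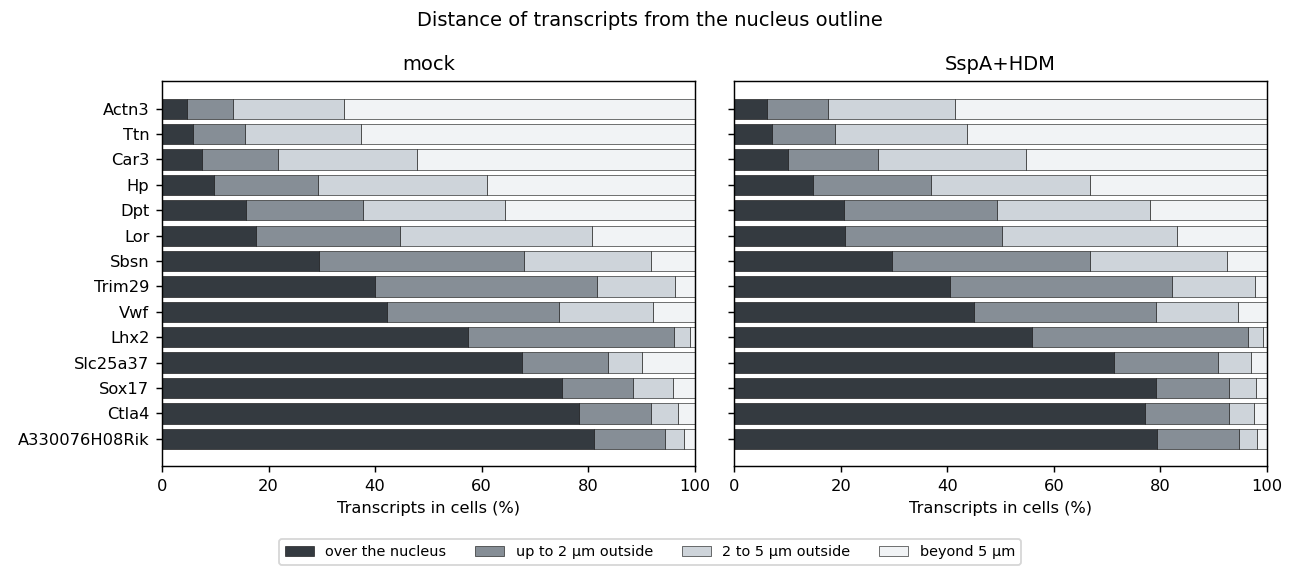
For 14 genes, the percentage of transcripts in cells that lay over the nucleus, up to 2 µm outside its outline, 2 to 5 µm outside, and farther, in mock and SspA+HDM. Genes are ordered by their mock share: Actn3 and Ttn have most transcripts beyond 5 µm, and Sox17, Ctla4 and A330076H08Rik have most over the nucleus.

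Between the sections, each gene's ratio of shares, SspA+HDM over mock, was divided by that of the panel (1.22). On that scale, and by the same limit, SspA+HDM was lower in 62 of 258 genes (24%) and higher in 6 (2.33%). The panel ratio comes from all transcripts pooled, and the median gene stood at 0.88 on this scale. A slight fall was enough to count as lower: Lum, at 24.2 and 23.6%, stood at 0.798. Myl9, at 17.5 and 26.7%, only just counted as higher, at 1.2501. The 2 counts are therefore not symmetric about no change in share. In plain percentage points, 160 of the 228 genes compared by strip were higher in SspA+HDM, 134 of them in both strips against both mock strips, and 39 were lower in the same sense. The count of lower genes depended on the setting. It ran from 52 to 77 with other quality, cell, depth and strip settings or with transcripts outside cells. Under class weights and near the nucleus it was much smaller. With each named cell class at the same weight and unnamed clusters left out, 8 genes were lower and 17 higher, and with coarser clusters 7 and 11. Among transcripts within 3 µm of the nucleus 4 genes were lower.

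Genes on the late epidermal list stood at the far end of the lower group, with 6 of 10 beside 24% of all genes. Cstdc4, which is on it, was spread more widely in SspA+HDM. There 14247 of its transcripts lay in a cluster led by Cstdc4, Aqp3 and Col17a1 among others, and 5033 in that led by Cnfn. Calm5, an epidermal calmodulin-like gene, had 36.9% of 9633 transcripts over the nucleus in mock (35.9 to 37.9) and 22.2% of 99267 in SspA+HDM (21.9 to 22.5), a relative ratio of 0.49. Its strips stood at 36.7 and 37.1% in mock and 22.9 and 21.6% in SspA+HDM. Within keratinocyte-like cells the values were 36.8 and 22.1%. Cstdc4 went from 52.3% of 342 transcripts (46.9 to 57.7) to 30.3% of 104811 (30.01 to 30.6), and Stfa2l1 from 49% of 100 (38.9 to 59.2) to 22.7% of 75408 (22.4 to 23.0), both with few transcripts in mock. These 3 stayed the lowest with class weights (36.8 and 22.1% for Calm5, 47.6 and 30.04% for Cstdc4, 52.5 and 22.6% for Stfa2l1).

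Serpinb11, a serpin gene, lay mostly in different classes in the sections. It had 58.8% of 1002 transcripts over the nucleus in mock (55.7 to 61.8) and 36.5% of 14488 in SspA+HDM (35.7 to 37.3). In mock 867 transcripts lay in hair follicle-like cells, at 61.6%, and in SspA+HDM 13712 lay in keratinocyte-like cells, at 35.6%. Within hair follicle-like cells of SspA+HDM it stood at 56.7%, and its class-weighted shares were 54.2 and 46.0%. The water and glycerol channel gene Aqp3 (53.9 and 47.0%) and the retinol-binding protein gene Rbp2 (39.6 and 32.5%) were lower too, at 52.0 and 48.4% and at 40.7 and 33.0% with class weights.

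The higher genes were few. Lce1m went from 14.6% of 6398 transcripts (13.7 to 15.5) to 23.3% of 3077 (21.9 to 24.9), with strips at 13.6 and 15.4% in mock and 23.4 and 23.3% in SspA+HDM, and it was at 14.5 and 23.0% in keratinocyte-like cells. Ifitm6 went from 26.0 to 43.3%. Mylk, the myosin light chain kinase gene, went from 24.8% (23.8 to 25.9) to 38.4% (37.7 to 39.1), and Myl9, a myosin light chain gene of smooth muscle, from 17.5% (16.5 to 18.5) to 26.7% (25.9 to 27.5). In mural-like cells Mylk stood at 15.02 and 24.7% and Myl9 at 12.3 and 19.3%, where the other genes stood at 21.6 and 25.4% and at 21.7 and 25.7%. Rab3b (24.3% of 189 transcripts and 50.7% of 215) had few transcripts. Without mock strip 1, 3 genes were higher in place of 6.

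Different clusters held most of the keratinocyte-like class in the sections, so differences within it are also differences between clusters. In mock 3207 of 3518 such cells lay in 2 clusters led by Lce1m, with shares of 37.7 and 32.3% and median outlines of 95.3 and 175 µm². In SspA+HDM nearly all lay in 9 other clusters, led by Cstdc4, Stfa2l1, Cnfn or Ivl, and their shares ran from 48.2% in the cluster with the smallest outlines (48.4 µm²) to 18.1% in that with the largest (258 µm²). Single genes followed the cluster. Trim29, a keratinocyte marker gene, stood at 46.8% in the first of these and 13.0% in the last, Krt16 at 45.8 and 15.8%, Calm5 at 41.9 and 14.4%, and Stfa2l1 at 38.3 and 14.7%. Uox, the gene of urate oxidase, stood at 51.7 and 18.7%. Cnfn, the gene of cornifelin, leads the cluster with the largest outlines. Every one of the 6 plotted genes was lower in the largest than in the smallest cells, and these genes were chosen after their values were seen.

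**Figure D5:**
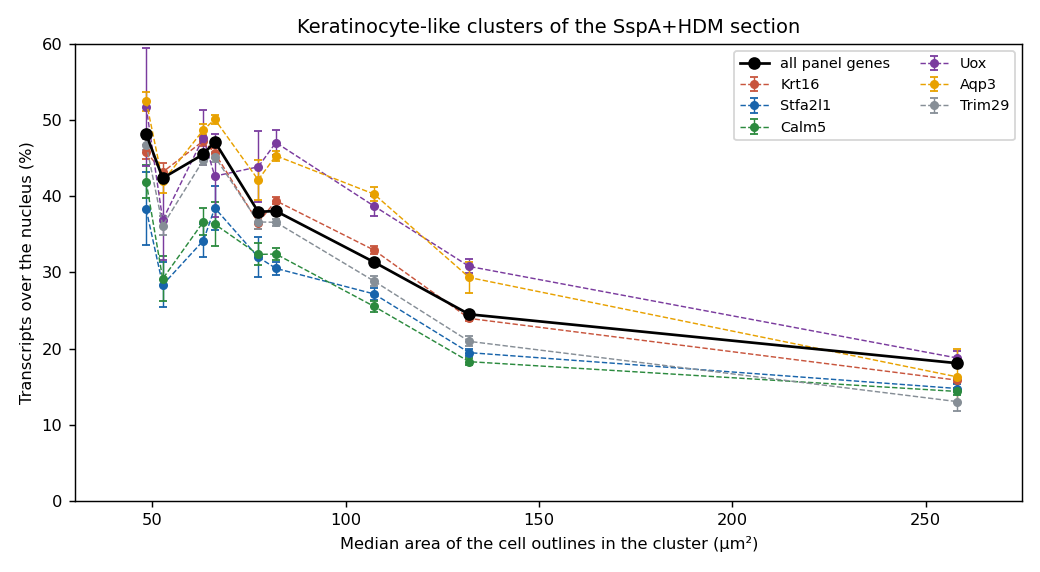
Nuclear share in the 9 keratinocyte-like clusters of the SspA+HDM section with at least 100 cells, against the median area of their cell outlines, for all panel genes (black) and 6 genes, with exact 95% intervals for counting error. The share of all genes is 48.2% in the cluster with the smallest outlines and 18.1% in that with the largest, and Stfa2l1 and Calm5 lie below the line of all genes throughout.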

How the data were processed

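The authors deposited, for each section, a table of decoded transcripts with gene, position, cell, nucleus overlap, distance to the nucleus and quality score, per the file headers. Cell outlines came as a second table. For decoding and segmentation, software and settings are not given in the sources here. The nucleus flag was used as deposited; 0.326 and 0.365% of transcripts in cells had distance 0 without it. Of gene transcripts that reached the quality minimum of 20, 94.5% (mock) and 97.6% (SspA+HDM) were in cells. Expected values for the matched ratio leave out the gene itself. On simulated data with 100 genes raised 1.5-fold, 99% (mock) and 100% (SspA+HDM) passed the 25% limit. Genes left unchanged came back at medians of 1.0006 (mock) and 0.965 (SspA+HDM). The most abundant genes were never changed in the simulation. It therefore cannot show how their low shares in the data move the ratios of other genes.

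Cells with at least 20 transcripts were clustered (log1p counts, 30 principal components, 15 neighbours, Leiden in leidenalg 0.10.2). Resolution 2 was chosen after resolution 1 had been seen to mix macrophage with fibroblast genes and nerve with muscle genes; both were used for class weights. A class name needed 3 detected markers and more markers than any other class among 10 leading genes, in at least 100 cells. The sections shared 0 cell names. No doublet caller was run, and outlines can take in neighbours' transcripts. Strips were split at the largest gap in position. Panel genes matched RefSeq names (GRCm38.p6 table) by symbol (378) or synonym (1).

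Genes named in the text were drawn from the 10 highest and lowest shares and matched ratios of a section, the 8 largest and smallest section ratios (at least 1000 transcripts), the 2 highest and lowest matched ratios of each list, and threshold neighbours. Not every gene picked by these rules is named. Others were named after their values were seen. The values of 1 gene among those higher in SspA+HDM are not reported here. The members and lists were chosen with earlier results of these data known. Alternatives covered quality, transcript number, cells, distance, section depth, strips, transcripts outside cells and class weights.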

Additional observations from a re-analysis of the deposited data

How the results depend on the processing

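Counting intervals are so narrow that nearly every setting moved the panel share beyond them. In mock the share was 24.95% at a quality of at least 30, 26.4% with no quality filter, 41.6% within 3 µm of the nucleus, 25.9% in the middle of the section in depth, 26.0 and 25.7% without strip 1 and strip 2, 24.4% with transcripts outside cells counted as not over the nucleus, and 27.5 and 27.6% with class weights (finer and coarser clusters, added after seeing the data). In SspA+HDM it was 31.6% at both quality settings, 42.4% within 3 µm, 31.7% in the middle depth, 31.4 and 31.9% without each strip, 30.9% with transcripts outside cells, and 28.3% with either class weighting. Within 3 µm, more nuclear genes in mock numbered 76 and less nuclear genes 16 in mock and 6 in SspA+HDM. At 1000 transcripts, more nuclear genes numbered 67 and 81. Genes higher in SspA+HDM numbered 13 without the quality filter, 3 without mock strip 1, 3 at 1000 transcripts and 17 or 11 with class weights. Lower genes numbered 4 within 3 µm, 34 at 1000 transcripts, 8 or 7 with class weights, and 52 to 77 under the remaining settings. Of the list medians of the matched ratio, 202 values stayed within 25% of the reported one and 5 moved, none across 1 from beyond the threshold. Matched counts have no value with transcripts outside cells, since those have no cell. No paired analysis was possible because the labels carry no replicate numbers and there is 1 sample per treatment. With 1 sample per treatment, a gene at 100 transcripts has an interval some 20 points wide, and causes of the moves were not tested.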

Other observations

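Further values bear on how the flag reads. The nuclear share fell with depth in the section in both samples, from 26.5% in the first 25% of transcripts by depth to 25.02% in the last 25% in mock; the SspA+HDM section went from 34.9 to 28.1%. Of cells with a gene transcript, 189 in mock (1.19%) and 361 in SspA+HDM (0.783%) had none over the nucleus, and 5 and 23 had all of them there.

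Within classes, genes with at least 100 transcripts in both sections were compared in percentage points. In macrophage or monocyte-like cells 70 of 85 genes were higher, with a median difference of 4.21 percentage points, and in fibroblast-like cells 53 of 65, with 2.81 points. In mural-like cells it was 51 of 65. In hair follicle-like cells it was 70 of 117, in keratinocyte-like cells 72 of 129 and in adipocyte-like cells 80 of 141, with a median difference of 0.98 points in the last. The sections' hair follicle-like and keratinocyte-like cells lay largely in different clusters, and the fibroblast-like class held only 433 cells in SspA+HDM, so these are also differences between clusters. In skeletal muscle-like cells 77 of 161 genes were higher, with a median difference of -0.41 points, although the class as a whole stood at 11.6% against 10.02%. Median cell outlines were smaller in SspA+HDM in the macrophage or monocyte-like class (106 against 170 µm²) and in the mural-like class (123 against 191 µm²), and about the same in the hair follicle-like class (51.6 and 51.3 µm²). What part the outlines have in these differences was not tested.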
